A study of Mus musculus with 24 samples.

Results

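The steroid metabolizing enzymes of liver described here were 10 genes, chosen by name, with earlier results of these data known. They make, interconvert or clear steroid hormones and bile acid precursors: Hsd3b5, Hsd3b2, Hsd3b3, Hsd3b7, Cyp17a1, Hsd17b2, Hsd17b6, Hsd11b1, Srd5a1 and Akr1d1. All 10 were matched by symbol among the 41388 genes counted, and all 10 passed the filter on low counts. Polyadenylated RNA of mouse liver was sequenced in a factorial design with 2 genotypes and 2 feeding states. Control mice carried floxed alleles (fl/fl in the titles), and knockout mice lacked alanine transaminase 2 (Gpt2), a mitochondrial enzyme that exchanges amino groups between alanine and glutamate, in the liver. Mice of both genotypes had free access to food or went without it for 18 h. The 22 libraries used were 5 control fed, 5 control fasted, 6 knockout fed and 6 knockout fasted. The sources used here do not give strain, age or Cre line, nor what the letter M in the titles stands for. Nothing in the labels says that the libraries of a group came from separate animals, so the p-values cover only the spread among these samples, which may be technical.

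The liver receives steroids made by adrenal glands and gonads and changes their activity before excretion. Hydroxysteroid dehydrogenases turn hydroxyl groups into keto groups or the reverse, which switches hormones on or off, while the reductases Srd5a1 and Akr1d1 remove a double bond from the first ring in opposite orientations. Several of these genes, Hsd3b5 above all, are known in mouse liver for expression that differs between the sexes and follows the pattern of growth hormone release, and Hsd3b7 and Akr1d1 also serve bile acid synthesis.

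Total reads assigned to genes lay between 18.4 M and 55.3 M per library. Gpt2 itself, the check on the genotype labels, was at 370 ± 51.9 CPM (counts per 1000000 reads of the TMM-scaled library; SD, n = 5) in control fed and 697 ± 86.7 (SD, n = 5) in control fasted livers. It was at 60.5 ± 11.3 (SD, n = 6) in knockout fed and 112 ± 36.3 (SD, n = 6) in knockout fasted livers, and no knockout library reached the lowest control library of its feeding state. Y-linked Ddx3y was at 28.1 to 57.5 CPM and Xist at no more than 0.542 CPM in every library. The library labelled control fasted replicate 4 was left out because it looked like kidney rather than liver: it held 75.7 CPM (unscaled) of the hepatocyte transcript Alb against at least 45450 in the others, and 4346 CPM of the kidney transcript Kap. In that library 9 of the 10 enzymes were below their lowest value in the other 22 libraries, and Hsd3b2 was within their range. The file of control fed replicate 6 was truncated within chromosome 1 and held none of the 10 genes. Reads of 2 of the remaining libraries also stood apart. Saa1, an acute phase transcript, was at 419 CPM in control fed replicate 5 and at 256 CPM in knockout fasted replicate 4, against 15.1 to 83.7 CPM in the other 20 libraries. These 2 libraries were picked after the values were seen, and results that rest on them are given with and without them.

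Hsd3b5, Hsd3b2 and Hsd3b3 are neighbours on the reverse strand of chromosome 3 (GRCm38, positions as in the files): chr3:98618636-98630309, chr3:98709255-98724576 and chr3:98741524-98763128. They belong to a cluster of related genes, Hsd3b1 to Hsd3b6, with stretches in common where reads cannot be assigned with certainty. Of all stretches of 50 bases in their transcripts, 21.2% of Hsd3b5, 26.9% of Hsd3b2 and 8.73% of Hsd3b3 also occurred in another gene, in or outside the cluster. Promoter sequence from RefSeq (GRCm38.p6, the 250 bases before the annotated start) was found for 8 of the 10 genes. The promoters of the 3 cluster genes are shown because these genes had the largest falls of the 10 in both genotypes. Capitals mark the 5 runs of 8 or more bases, 60 bases in all, that the best local alignment of Hsd3b5 and Hsd3b3 holds in common. All 3 are on the reverse strand and written 5′ to 3′, at chr3:98645535-98645784, chr3:98763129-98763378 and chr3:98724544-98724793.
Hsd3b5: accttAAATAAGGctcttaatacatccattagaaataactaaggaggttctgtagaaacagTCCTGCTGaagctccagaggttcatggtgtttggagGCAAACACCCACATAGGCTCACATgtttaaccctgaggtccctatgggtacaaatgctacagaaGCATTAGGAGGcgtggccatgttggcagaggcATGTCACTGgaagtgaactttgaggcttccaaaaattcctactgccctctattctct
Hsd3b3: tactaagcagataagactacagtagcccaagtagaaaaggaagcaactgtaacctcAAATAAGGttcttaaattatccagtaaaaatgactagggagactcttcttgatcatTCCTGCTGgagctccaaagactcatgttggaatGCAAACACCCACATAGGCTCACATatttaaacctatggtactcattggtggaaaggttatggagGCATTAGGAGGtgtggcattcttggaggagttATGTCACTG
Hsd3b2: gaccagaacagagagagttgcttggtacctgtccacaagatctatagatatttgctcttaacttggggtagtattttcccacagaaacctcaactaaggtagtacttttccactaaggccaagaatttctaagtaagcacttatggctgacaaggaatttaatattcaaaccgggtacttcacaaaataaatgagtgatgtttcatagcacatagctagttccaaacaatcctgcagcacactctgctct
The Hsd3b5 and Hsd3b3 promoters aligned over 202 columns with 151 identical bases (74.8%) and 3 gap columns, and their longest common run was 24 bases. Between any other pair of the 6 cluster genes the best local alignment spanned at most 52 columns. The RefSeq start of Hsd3b5, at position 98645534, lies upstream of the gene model counted in the files, so reads upstream of that model were not counted for it. Motif letters were searched on both strands of these windows. The STAT5 element TTCNNNGAA, bound by a factor of growth hormone signalling, was found in Hsd3b7 alone among the 8 genes and in 7.18% of 27025 promoters. The nuclear receptor half-site AGGTCA was found in Akr1d1 alone and in 13.8% of promoters, and the steroid receptor half-site TGTTCT in Hsd3b2 alone and in 16.2%.

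Fasting lowered most of these transcripts and raised 1 of them. In control livers 6 of the 10 fell (Hsd3b5, Hsd3b3, Hsd3b2, Hsd17b2, Akr1d1 and Hsd3b7), Cyp17a1 rose, and Srd5a1, Hsd17b6 and Hsd11b1 did not pass the threshold of an adjusted p under 0.05 (quasi-likelihood test of edgeR, Benjamini-Hochberg adjusted over 16757 genes). The background in that comparison was 8.12% of all tested genes called, 4.13% lower and 3.99% higher. In knockout livers the same 6 genes fell and none rose by edgeR (DESeq2 called Cyp17a1 higher), against 6.14% of genes called, 3.26% lower and 2.88% higher. Falls called in both genotypes made up 2.12% of tested genes. The median log2 fold change of the 10 genes was -0.77 in control and -0.72 in knockout livers, against 0.00 and 0.01 over all tested genes. Because the 10 genes were chosen with earlier results known, these background values give a scale and not a test. The fasting comparisons of the 2 genotypes share no libraries, but both come from 1 fit in which all 4 groups share an estimate of the spread. In bulk RNA, fewer cells of a type and less RNA per cell cannot be told apart.

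**Figure D1:**
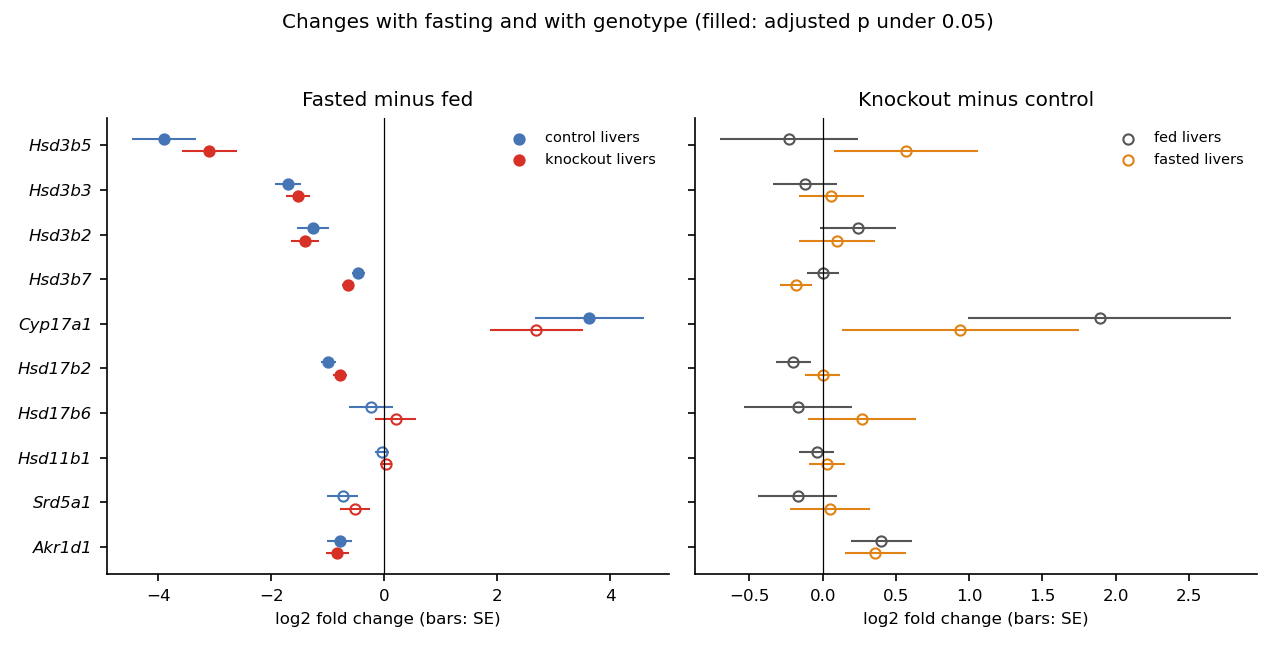
Log2 fold changes of the 10 enzymes with their standard errors, fasted minus fed on the left (blue control, red knockout livers) and knockout minus control on the right (grey fed, orange fasted livers). Filled points passed an adjusted p under 0.05. Hsd3b5 lies farthest to the left and Cyp17a1 farthest to the right with fasting, and no point is filled in the genotype panel.

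Hsd3b5, which reduces active androgens and is a hallmark of male mouse liver, fell most. It was at 236, 221, 242, 188 and 119 CPM in control fed libraries and at 23, 14.4, 10.4, 3.48 and 15.9 CPM in control fasted libraries. The lowest fed library therefore stood above every fasted one. Knockout livers held 131 to 212 CPM (median 174) when fed and 4.42 to 34.6 CPM (median 22.1) when fasted, again without overlap. The log2 fold change was -3.90 ± 0.56 (SE) in control livers, a 15-fold fall (edgeR adjusted p = 0.000123). The knockout value was -3.10 ± 0.49 (edgeR adjusted p = 0.000371), an 8.56-fold fall. Fed library 5 of the controls, the lowest fed value, was also 1 of the 2 libraries high in Saa1. Without those 2 libraries the changes were -4.04 ± 0.51 and -2.89 ± 0.46 on the log2 scale.

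Hsd3b3, a dehydrogenase and isomerase of liver and kidney, was at 236, 173, 238, 249 and 206 CPM in control fed libraries. It was at 77, 80, 48, 44.5 and 88.6 CPM after fasting. Knockout libraries held 165 to 234 CPM (median 204) fed and 34.4 to 99.4 CPM (median 79) fasted. Fed and fasted libraries did not overlap in either genotype, and the falls were 3.26-fold (log2 fold change -1.70 ± 0.23, edgeR adjusted p = 3.59e-05) in control and 2.89-fold (-1.53 ± 0.21, edgeR adjusted p = 3.9e-05) in knockout livers. Hsd3b2 was at 46.3, 36.9, 46.7, 42.5 and 44.4 CPM in control fed libraries and at 22.1, 11.4, 15.2, 14.1 and 27.3 CPM in control fasted ones. Its knockout libraries held 41.6 to 58.4 CPM (median 51.3) fed and 6.04 to 27.2 CPM (median 21.4) fasted. Here too every fed library lay above every fasted one. The log2 fold changes of Hsd3b2 were -1.26 ± 0.28 (edgeR adjusted p = 0.00458) in control and -1.40 ± 0.25 (edgeR adjusted p = 0.000844) in knockout livers.

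**Figure D2:**
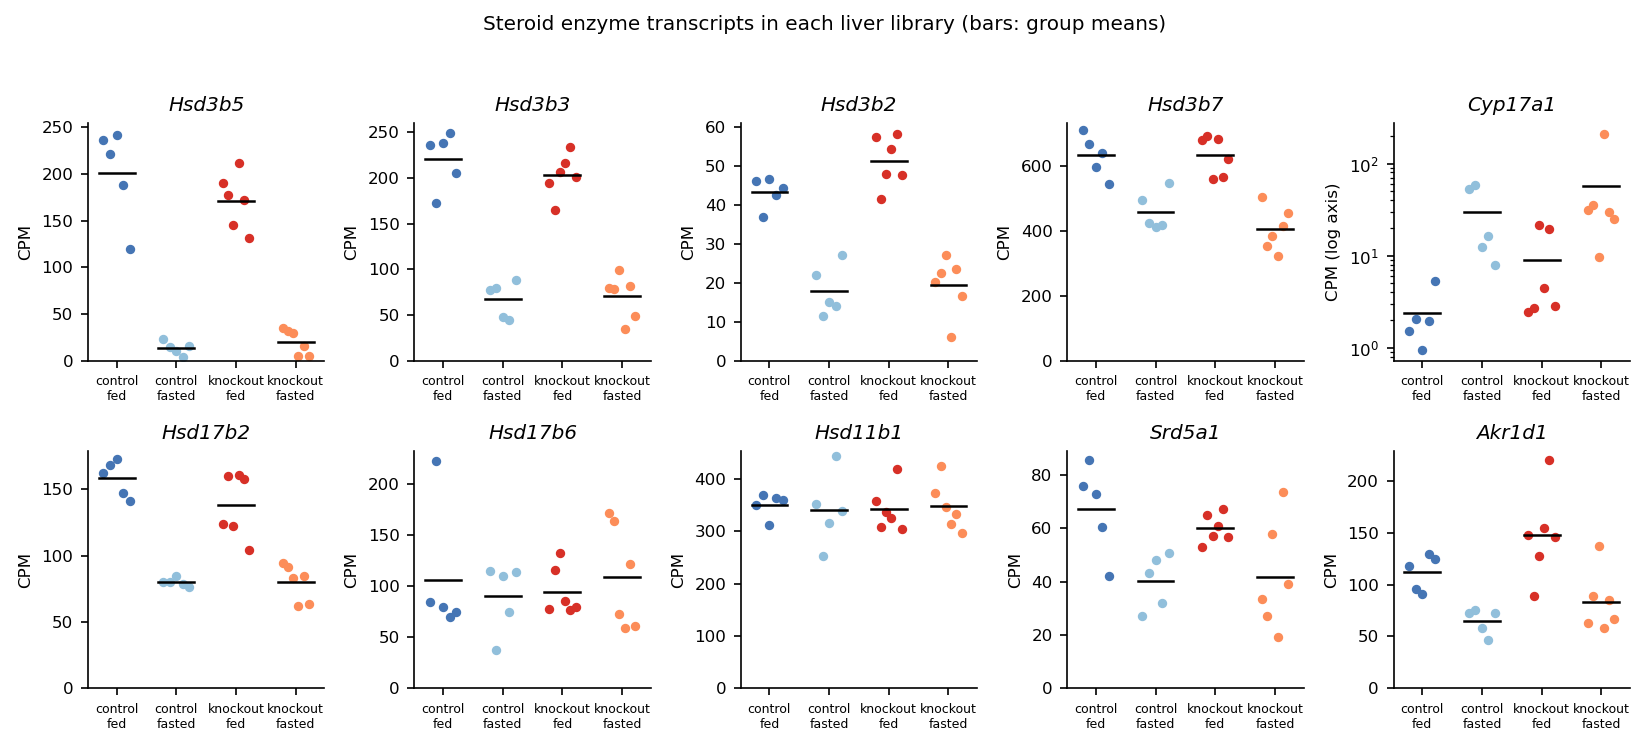
TMM-scaled CPM of the 10 enzymes in each of the 22 libraries (points, 1 panel per gene, groups along the x axis; bars are group means). The axis of Cyp17a1 is logarithmic and the others start at 0. Fed and fasted libraries separate completely for Hsd3b5, Hsd3b3, Hsd3b2 and Hsd17b2.

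Over both genotypes, 4 of the 10 enzymes (Hsd3b5, Hsd3b2, Hsd3b3 and Hsd17b2) had no overlap between the 11 fed and the 11 fasted libraries, a separation seen in 1.83% of tested genes. Within control livers 6 of the 10 separated, with Akr1d1 and Cyp17a1 in addition (background 7.91%). Within knockout livers 5 separated, with Hsd3b7 in addition (background 3.97%). The choice of the 10 genes with earlier results known limits these comparisons too.

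The fall was uneven within the Hsd3b cluster. Per kilobase of gene model (RPKM), Hsd3b5 and Hsd3b3 were at like levels in control fed livers, 125 ± 31.6 and 124 ± 17.4 RPKM (SD, n = 5). After fasting Hsd3b5 was at 8.4 ± 4.49 RPKM and Hsd3b3 at 38.1 ± 11.3 RPKM. The share of Hsd3b5 in the summed RPKM of Hsd3b1 to Hsd3b6 was 49.8, 55.5, 49.9, 43.1 and 36.3% in control fed libraries and 22.2, 15.5, 16.9, 6.82 and 14.5% in control fasted ones. In knockout livers this share ranged from 38.9 to 50.8% (median 45) fed and from 7.77 to 29.4% (median 18.5) fasted. The mean share thus went from 46.9% to 15.2% in control livers (two-sided exact permutation p = 0.00794, adjusted over 4 tests 0.0159) and from 44.8% to 19.1% in knockout livers (two-sided exact permutation p = 0.00216, adjusted 0.00866). These are the smallest p-values that 252 and 924 arrangements can give, and no fasted library reached a fed one. The share was chosen after the levels were seen, with Hsd3b5 already known to fall most. These p-values are therefore not a separate test of the uneven fall. The summed level fell from 265 ± 40.1 to 52.3 ± 16.2 RPKM in control livers and from 237 ± 24.4 to 58.1 ± 22.9 RPKM in knockout livers. Of the other cluster genes, Hsd3b6 was at 0.636 to 8.63 CPM and fell as well (log2 fold change -1.74 ± 0.35 in control livers, edgeR adjusted p = 0.000872). Hsd3b1 did not exceed 1.01 CPM and Hsd3b4 did not exceed 0.238 CPM.

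**Figure D3:**
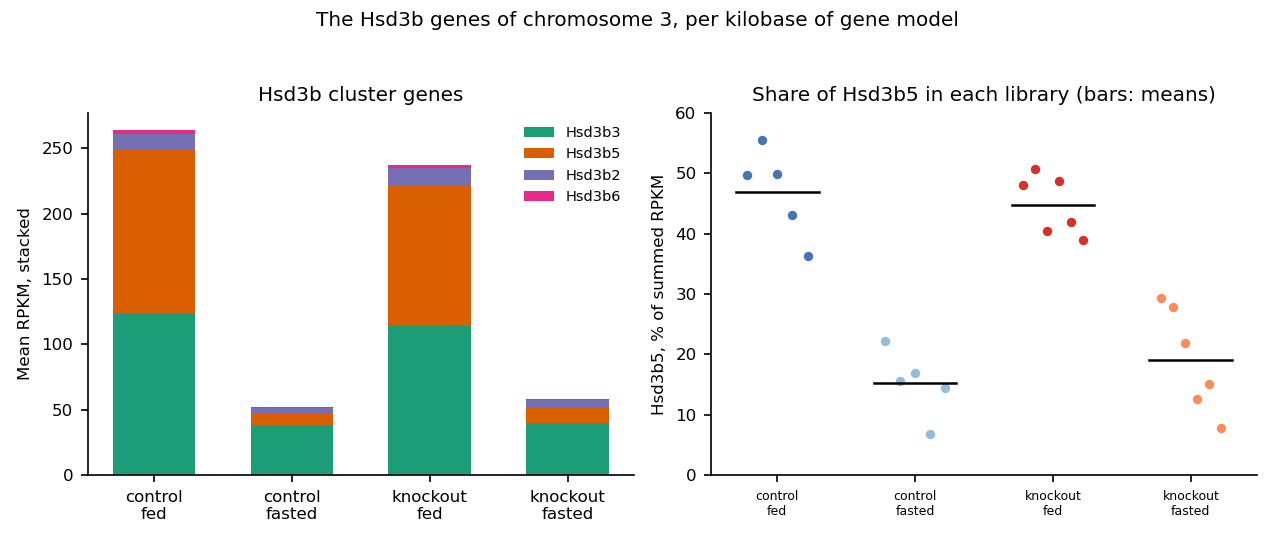
Left: mean RPKM of the 4 Hsd3b cluster genes with measurable levels, stacked per group. Right: Hsd3b5 as a percentage of the summed RPKM of all 6 cluster genes in each library (bars are group means), between 36.3 and 55.5% in fed and between 6.82 and 29.4% in fasted libraries.

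Hsd3b7 (chr7:127785608-127803802, forward strand) lies outside the cluster and oxidises hydroxylated cholesterol on the way to bile acids. Control fed libraries held 712, 668, 598, 641 and 545 CPM, and control fasted libraries 495, 423, 411, 418 and 549 CPM. A single fasted library, replicate 6, exceeded the lowest fed one. Knockout libraries held 561 to 692 CPM (median 652) fed and 324 to 505 CPM (median 399) fasted, without overlap. The fall was small beside those of the cluster genes: 1.38-fold in control livers (log2 fold change -0.46 ± 0.12, edgeR adjusted p = 0.0104) and 1.56-fold in knockout livers (-0.64 ± 0.11, edgeR adjusted p = 0.000114). Its gene model overlaps Setd1a on the same strand, and 83.1% of its stretches of 50 bases also occurred in other annotated transcripts, so its reads may be split with those genes.

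Of the 2 Hsd17b enzymes, Hsd17b2 fell with fasting and Hsd17b6 did not pass the test. The 2 genes were not compared with each other. Hsd17b2 (chr8:117701946-117759029, forward strand), which oxidises estradiol and testosterone to weaker keto forms, was at 162, 168, 173, 147 and 141 CPM in control fed libraries. After fasting it was at 79.8, 80.4, 84.3, 78.6 and 76 CPM, a spread of 3.8% (coefficient of variation) and the tightest of all groups and genes here. Knockout libraries held 104 to 161 CPM (median 141) fed and 61.8 to 94.7 CPM (median 83.8) fasted. Both genotypes separated completely by feeding state. The falls were 1.98-fold (log2 fold change -0.99 ± 0.13, edgeR adjusted p = 1.72e-06) in control and 1.73-fold (-0.79 ± 0.12, edgeR adjusted p = 1.43e-05) in knockout livers.

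Hsd17b6 (chr10:127990941-128000678, reverse strand), an enzyme that oxidises androstanediol and also acts on retinol, was at 84.3, 223, 80, 70 and 74.8 CPM in control fed libraries. Control fasted libraries held 115, 37.8, 110, 74.8 and 114 CPM, which overlapped the fed range. Knockout libraries held 76.4 to 133 CPM (median 82.6) fed and 59.5 to 172 CPM (median 97.5) fasted. No change passed the test, with log2 fold changes of -0.24 (95% interval -1.0 to 0.53) in control and 0.20 (-0.50 to 0.89) in knockout livers. Control fed replicate 2 stood far above the other 4 libraries of its group, and without it the control value was 0.23. Of its stretches of 50 bases, 12.1% also occurred in neighbouring retinol dehydrogenase genes.

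Hsd11b1 (chr1:193221630-193264054, reverse strand) regenerates active glucocorticoid inside the endoplasmic reticulum. Its group means spanned 0.06 log2 units, the least of the 10. Control fed libraries held 350, 369, 311, 363 and 359 CPM, and control fasted libraries 351, 253, 315, 443 and 339 CPM. Knockout libraries held 305 to 418 CPM (median 330) fed and 296 to 425 CPM (median 339) fasted. All 4 groups overlapped. The log2 fold changes with fasting were -0.04 (95% interval -0.29 to 0.20) in control and 0.03 (-0.20 to 0.25) in knockout livers. H6pd, which supplies this enzyme with reduced cofactor, was at 426 to 657 CPM over all libraries and did not pass the test either, with log2 fold changes of -0.10 ± 0.13 and 0.00 ± 0.12.

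The 2 reductases that act on the same double bond both had lower means after fasting, but 1 of them passed the test. Akr1d1 (chr6:37530173-37568815, forward strand), the beta reductase, was at 118, 95.9, 91, 130 and 125 CPM in control fed libraries and at 72.2, 75.1, 57.9, 46.9 and 72.4 CPM in control fasted ones. Fed and fasted control libraries did not overlap. In knockout livers it ranged from 88.8 to 220 CPM (median 147) fed and from 57.7 to 137 CPM (median 76.3) fasted, with overlap. The log2 fold changes were -0.79 ± 0.22 (edgeR adjusted p = 0.0283) in control and -0.83 ± 0.20 (edgeR adjusted p = 0.0137) in knockout livers. The control fold was about as large without any 1 of control fed replicates 1, 4 and 5 or control fasted replicates 3 and 5 (log2 fold change -0.77 to -0.69), but the edgeR adjusted p was then 0.0625 to 0.0895.

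Srd5a1 (chr13:69573449-69611442, reverse strand), the alpha reductase that makes the most potent androgen from testosterone, was at 76, 85.6, 72.7, 60.5 and 42 CPM in control fed libraries. Control fasted libraries held 27.1, 43.4, 48.2, 32.1 and 50.6 CPM. The lowest fed library, replicate 5, reached into the fasted range. Knockout libraries held 53 to 67.3 CPM (median 59.1) fed and 19.2 to 73.6 CPM (median 36.3) fasted. The log2 fold changes were -0.74 ± 0.28 (edgeR adjusted p = 0.128) and -0.52 ± 0.26 (edgeR adjusted p = 0.329). Without the 2 libraries high in Saa1 the control value was -0.87 ± 0.22 (edgeR adjusted p = 0.0169). Without knockout fasted replicate 5 the knockout value was -0.76 (edgeR adjusted p = 0.0497). The ratio of Akr1d1 to Srd5a1 RPKM was 1.79 ± 0.76 in control fed and 1.68 ± 0.564 in control fasted livers (SD, n = 5 each; two-sided exact permutation p = 0.873). In knockout livers it was 2.44 ± 0.629 fed and 2.21 ± 0.798 fasted (SD, n = 6 each; two-sided exact permutation p = 0.528).

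Cyp17a1 (chr19:46667165-46672974, reverse strand), the hydroxylase and lyase that opens the way to androgens in the gonads, was the single enzyme with higher levels after fasting that passed the test. Control fed libraries held 1.53, 2.07, 0.951, 1.93 and 5.33 CPM, and control fasted libraries 53.1, 58.4, 12.5, 16.5 and 7.88 CPM. Every fasted library was above every fed one, and the fasted libraries spread over a wide range. In knockout fed libraries it was at 2.44 to 21.6 CPM (median 3.65), with replicates 3 and 5 at 21.6 and 19.6 CPM and the other 4 at no more than 4.42 CPM. Knockout fasted libraries held 9.68 to 208 CPM (median 30.6). The highest of them, replicate 4, was 1 of the 2 libraries high in Saa1. The log2 fold changes were 3.63 ± 0.96 (edgeR adjusted p = 0.0223) in control and 2.69 ± 0.82 (edgeR adjusted p = 0.0614, not passing) in knockout livers.

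Whether Cyp17a1 passed the threshold changed with single libraries and tools. In control livers the edgeR adjusted p was 0.0508 to 0.0619 without any 1 of control fed replicates 1 to 4 or control fasted replicate 2, with log2 fold changes of 3.24 to 3.59. With limma voom the fold was 3.29 (adjusted p = 0.293). In knockout livers it passed at 0.0373 without knockout fed replicate 3, at 0.0414 without knockout fasted replicate 3 and, by DESeq2, at 0.00486. Without the 2 libraries high in Saa1 the log2 fold changes were 4.20 ± 0.89 (edgeR adjusted p = 0.00642) and 1.59 ± 0.67 (edgeR adjusted p = 0.252). Most of the listed genes of steroid producing organs were near 0 in these libraries. Exceptions were Mrap, at 34.9 to 64.4 CPM, and Star, which was low at 0.246 to 3.55 CPM. Cyp11b2 and Lhcgr had no read in the 22 libraries, Cyp11b1 had 1 read, and Cyp11a1 did not exceed 0.312 CPM. The summed level of the 11 adrenal and gonad genes was 45.8 to 66.7 CPM in control fed and 47.1 to 61.3 CPM in control fasted libraries, most of it from Mrap. In knockout libraries that sum was 36.7 to 49.3 CPM fed and 38.1 to 67.2 CPM fasted. Of that list 4 genes were tested, and 0 passed in either fasting comparison by edgeR, by DESeq2 or at an unadjusted p under 0.05.

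Per kilobase, the order of the 10 enzymes changed with feeding. Ranks between genes rest on the lengths of the gene models, which are not certain. The Hsd3b7 model, 6154 bases long, overlaps Setd1a, and its CPM was the highest of the 10 in control fed livers (633 ± 64.3, SD, n = 5). The Hsd3b5 model begins downstream of its RefSeq start. In control fed livers Hsd11b1 (129 ± 8.51 RPKM), Hsd3b5, Hsd3b3 and Hsd17b2 (124 ± 10.8 RPKM) led, and these neighbours did not differ beyond their spread. Hsd3b7 followed at 103 ± 10.4 RPKM, and Cyp17a1 was last at 1.09 ± 0.791 RPKM. In control fasted livers Hsd11b1 (126 ± 25.4 RPKM) was followed by Hsd3b7 (74.6 ± 9.84 RPKM), Hsd17b6 (64.8 ± 24.2 RPKM) and Hsd17b2 (62.3 ± 2.37 RPKM). Hsd3b5 was then ninth at 8.4 ± 4.49 RPKM, below Cyp17a1 at 13.7 ± 11.1 RPKM, within their spread. The knockout groups had Hsd11b1 first and Cyp17a1 last when fed (126 ± 15.6 and 4.12 ± 4.19 RPKM), and Hsd11b1 first and Hsd3b2 last when fasted (128 ± 17 and 5.2 ± 1.99 RPKM).

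Loss of Gpt2 came with no change in these enzymes that passed the test. In fed livers 0 of the 10 were called by edgeR (background 0.00597% of tested genes, which is Gpt2 alone), and 1 of the 10, Cyp17a1, had an unadjusted p under 0.05, as did 9.01% of all tested genes. Its log2 fold change of knockout over control was 1.89 ± 0.90 (edgeR adjusted p = 0.553), with means of 2.36 ± 1.71 CPM (SD, n = 5) and of 8.93 ± 9.07 CPM (SD, n = 6) in control and knockout fed livers and overlapping ranges. Without the 2 libraries high in Saa1 it was 2.44 ± 0.82 (edgeR adjusted p = 0.361), and in fasted livers Cyp17a1 went from 0.94 ± 0.81 to -0.17 ± 0.69. In fasted livers 0 of the 10 were called (background 0.00597%, again Gpt2), and none had an unadjusted p under 0.05. DESeq2 called no member there or in fed livers. The 95% intervals of the genotype effect were narrowest for Hsd3b7 (-0.22 to 0.23 in fed livers) and Hsd11b1 (-0.27 to 0.20). For Hsd3b5 they ran from -1.16 to 0.69 in fed and from -0.38 to 1.53 in fasted livers on the log2 scale. Differences within those intervals are therefore not excluded by these libraries.

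The fasting response itself was compared between genotypes by the interaction, the knockout response minus the control response. For 0 of the 10 did it pass (background 0.00597% by edgeR, 1 gene, Zfp871, named after its values were seen), DESeq2 called none either, and none had an unadjusted p under 0.05 in the fit of all 22 libraries. It was 0.81 ± 0.68 for Hsd3b5, 0.17 ± 0.31 for Hsd3b3, -0.14 ± 0.37 for Hsd3b2 and -0.94 ± 1.18 for Cyp17a1. Without the 2 libraries high in Saa1 the interaction of Cyp17a1 was -2.61 ± 1.06 and that of Hsd3b5 1.15 ± 0.63 (edgeR adjusted p = 1 for both). The Cyp17a1 value thus depended on these 2 libraries and was larger beside its standard error without them. Unadjusted p-values of that setting are not given here. The 95% interval of the Hsd3b5 interaction was -0.52 to 2.13.

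The coefficient of variation was larger in fasted than in fed livers for 8 of the 10 enzymes in control and 9 of the 10 in knockout livers, as a description without a test. The share over all tested genes was not computed, so whether this was particular to these enzymes is not known. Hsd17b2 went the other way in both genotypes (8.7% to 3.8% in control, 17.7% to 17.5% in knockout livers), and Hsd17b6 in control livers (61.3% to 37.3%). That of Hsd3b5 was 25.2% in control fed and 53.5% in control fasted livers, and 17.3% and 67.9% in the knockout groups. For Hsd3b2 it went from 9.1% to 36.3% in control and from 12.8% to 38.3% in knockout livers. Knockout fasted replicate 4 was the lowest of its 6 libraries for 7 of the 10 enzymes, second lowest for Hsd3b5 and Hsd11b1, and highest for Cyp17a1. It also had the highest summed hepatocyte markers of all libraries, 181249 CPM, and high Lcn2, an acute phase transcript, at 167 CPM. Control fed replicate 5 was lowest of its 5 for 4 enzymes and highest for Cyp17a1, with Lcn2 at 78.3 CPM. The other 20 libraries held 3.92 to 28.8 CPM of Lcn2. The part of the acute phase transcripts in these levels was not tested. Without both libraries 7 members were called in control and 6 in knockout livers, as many as with them, although Srd5a1 then passed and Akr1d1 did not in control livers (edgeR adjusted p = 0.0169 and 0.053).

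For enzymes whose group means spanned at least 2 log2 units, Hsd3b5 and Cyp17a1, the genes with the most similar pattern were sought by the root mean square difference of centred log2 group means over the 4 groups, among 8924 genes. Nearest to Hsd3b5 were Thrsp (0.28), Selenbp2 (0.40) and Cyp2c70 (0.48). Thrsp, a regulator of fat synthesis, went from 256 ± 153 to 12.5 ± 7.83 CPM in control and from 127 ± 50.2 to 18 ± 10.2 CPM in knockout livers. Nearest to Cyp17a1 were the magnesium transporter gene Nipal1 (0.14) and the metallothioneins Mt1 (0.32) and Mt2 (0.32). Mt1, which binds zinc, went from 39.6 ± 26.6 to 227 ± 86.9 CPM in control and from 87 ± 62.8 to 413 ± 222 CPM in knockout livers. These likenesses rest on 4 group means.

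Related genes did not follow a single direction. For scale beside the list counts below, 8.12% of all tested genes were called in control and 6.14% in knockout livers. The lists were chosen with earlier results known, so this share is not a test of them. Of 11 tested relatives among the hydroxysteroid dehydrogenases, 4 rose and 1 fell in control livers, and 4 rose and 2 fell in knockout livers (median log2 fold changes 0.40 and 0.01). Hsd17b10, a mitochondrial enzyme of fatty acid and isoleucine breakdown, rose from 98.2 ± 14 to 251 ± 50.7 CPM in control livers. Hsd17b4, the multifunctional enzyme of peroxisomal fat oxidation, rose from 340 ± 24.8 to 663 ± 68.1 CPM, and Hsd17b11, a lipid droplet protein, from 121 ± 9.82 to 271 ± 65.9 CPM. Their log2 fold changes were 1.36 ± 0.14, 0.96 ± 0.11 and 1.16 ± 0.15 (edgeR adjusted p = 5.42e-08, 7.06e-08 and 2.75e-06). These 3 are best known for fat metabolism despite the name of the list.

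Among reductases, called genes of the aldo-keto family were all lower after fasting. Of 10 tested reductases, a list that also holds Srd5a2 and Srd5a3 from outside that family, 4 fell and 0 rose in each genotype. Their median log2 fold changes were -0.44 and -0.58. Akr1c6, which reduces keto steroids in liver, fell from 655 ± 87 to 287 ± 72.7 CPM in control livers (log2 fold change -1.19 ± 0.25, edgeR adjusted p = 0.00332) and by 1.25 ± 0.23 on the log2 scale in knockout livers. Akr1c14, which reduces dihydrotestosterone, had log2 fold changes of -0.61 ± 0.15 and -0.72 ± 0.13, both called. Akr1c20 and Akr1c13 fell as well, and their close sequence leaves the split of reads between Akr1c genes uncertain.

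The P450 and conjugation lists gave fewer calls than the dehydrogenase and reductase lists. Of 8 steroid hydroxylating P450 genes, 1 rose and 1 fell in control livers: Cyp39a1, a hydroxylase of oxysterols (log2 fold change 1.4 ± 0.36), and Cyp2a12 (-0.38 ± 0.11). In knockout livers 1 rose, Cyp2a22 (0.69 ± 0.20, edgeR adjusted p = 0.0281), and 0 fell. Of 13 genes of steroid conjugation and hydrolysis, 0 passed by edgeR or by DESeq2 in either genotype, 5 had an unadjusted p under 0.05 in each (19.6% of all tested genes in control and 16% in knockout livers), and the median log2 fold changes were -0.32 and -0.18. Ugt2b1, which attaches glucuronic acid to steroids, had the smallest p of them, at 394 ± 70 and 233 ± 42.4 CPM in fed and fasted control livers (edgeR adjusted p = 0.104).

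Among 10 genes that supply electrons and reduced cofactor, 1 rose and 4 fell in each genotype. Por, the reductase that feeds P450 enzymes including Cyp17a1, rose from 276 ± 68.8 to 780 ± 83.3 CPM in control livers (log2 fold change 1.5 ± 0.18, edgeR adjusted p = 1.09e-06) and by 1.11 ± 0.16 in knockout livers. Cyb5b, an outer mitochondrial cytochrome, fell from 478 ± 41.4 to 206 ± 32.3 CPM (-1.22 ± 0.14, edgeR adjusted p = 3.31e-07). Cyb5r3, its reductase, fell by 1.03 ± 0.12, and Fdx1, the mitochondrial ferredoxin, by 0.59 ± 0.12 on the log2 scale in control livers.

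Of 10 steroid and steroid sensing receptors, 2 rose and 0 fell in control livers, and 1 rose in knockout livers. Nr1i3, the receptor CAR that controls clearance enzymes, rose from 75.1 ± 16.7 to 240 ± 42.1 CPM in control livers (1.68 ± 0.21, edgeR adjusted p = 6.94e-06) and by 1.34 ± 0.19 in knockout livers. The glucocorticoid receptor Nr3c1 was at 72.2 ± 13.5 and 54.6 ± 5.9 CPM (edgeR adjusted p = 0.096). Of 12 genes of growth hormone signalling and sex-biased regulation, 1 rose and 1 fell in each genotype. The gene that rose was Cux2 in control and Hnf4a in knockout livers. Hnf4a had log2 fold changes of 0.32 ± 0.12 in control (edgeR adjusted p = 0.0983) and 0.48 ± 0.11 in knockout livers (edgeR adjusted p = 0.00373). Ghr, the growth hormone receptor, fell from 383 ± 30.2 to 231 ± 21.8 CPM in control livers (-0.73 ± 0.12, edgeR adjusted p = 8.16e-05) and by 0.77 ± 0.11 in knockout livers. Cux2, a repressor of male-biased genes that is typical of female liver, was at 0.124 to 0.836 CPM in control fed and 1.8 to 14.1 CPM in control fasted libraries (3.76 ± 0.97, edgeR adjusted p = 0.0174). In knockout livers it did not pass (1.87 ± 0.82, edgeR adjusted p = 0.242).

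**Figure D4:**
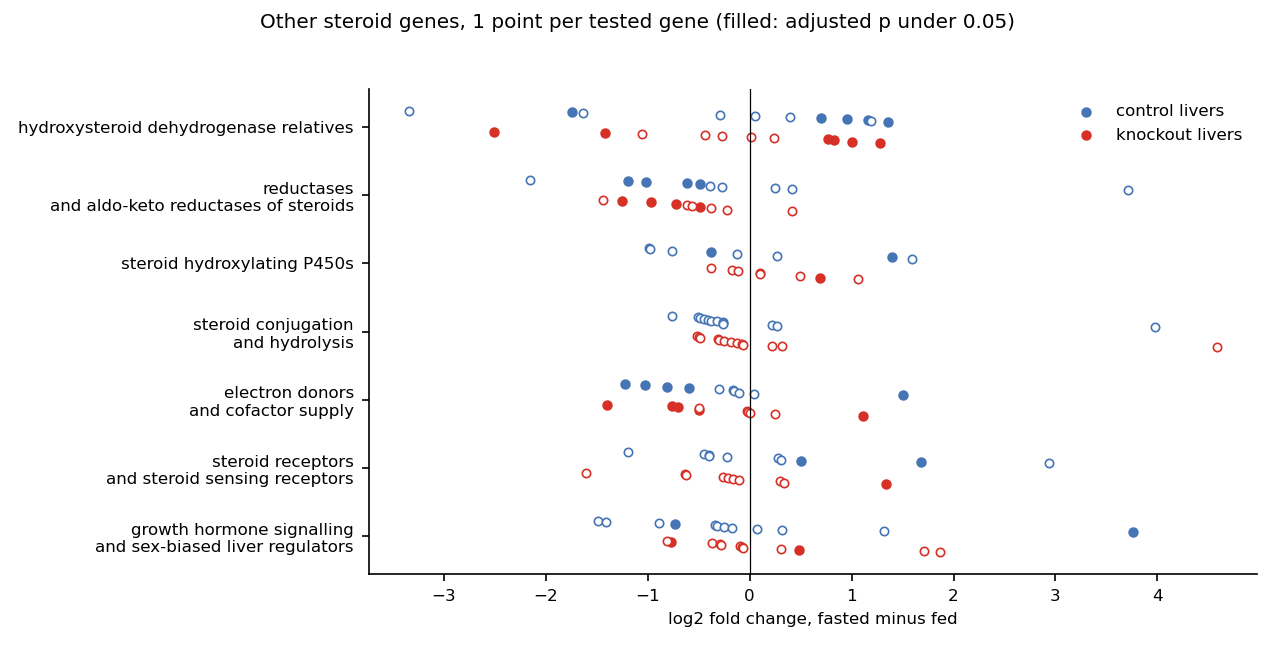
Log2 fold change with fasting of each tested gene in 7 lists of other steroid genes (blue control, red knockout livers), filled where the adjusted p was under 0.05. Aldo-keto reductases called lie left of 0, and called dehydrogenase relatives lie on both sides.

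Markers of other cells that liver tissue could hold were also followed. Summed hepatocyte markers were 87960 to 126209 CPM in control fed, 87596 to 158813 in control fasted, 87722 to 154130 in knockout fed and 92483 to 181249 in knockout fasted libraries, which overlap. Alb was the largest part of these sums, at 44430 to 118341 CPM. Of the single hepatocyte markers, Apoa1 and Apob rose in control livers (log2 fold changes 0.71 ± 0.20 and 0.44 ± 0.14). Serpina1c and Fgb fell there (-0.45 ± 0.12 and -0.53 ± 0.14). None of the hepatocyte markers passed in knockout livers. Summed endothelial markers were 97.6 to 153 CPM in control fed and 124 to 166 CPM in control fasted libraries, against 149 to 218 and 142 to 223 CPM in knockout fed and fasted libraries. Summed Kupffer cell markers were 125 to 206 and 112 to 140 CPM in control, and 160 to 257 and 122 to 266 CPM in knockout fed and fasted libraries. Stellate cell markers summed to 118 to 150 and 76.4 to 126 CPM in control, and to 135 to 176 and 94.6 to 147 CPM in knockout libraries. Cholangiocyte markers summed to 46.3 to 78.3 and 37 to 61.1 CPM in control, and to 48.6 to 67.3 and 44.6 to 65.6 CPM in knockout libraries. Among single markers, picked after their values were seen, the collagen gene Col3a1 fell with fasting in both genotypes (log2 fold changes -1.33 ± 0.22 and -1.45 ± 0.20), and the endothelial gene Lyve1 rose in both (1.28 ± 0.34 and 1.0 ± 0.31). The rest of these lists did not follow them. No other endothelial marker passed in either genotype. Of the other stellate markers only Col1a1 passed, in control livers alone (-1.17 ± 0.32, edgeR adjusted p = 0.0163). Kidney markers summed to at most 22 CPM. Exocrine pancreas markers summed to 27.2 to 39.8 CPM in control fed and 3.43 to 8.48 CPM in control fasted libraries, with knockout sums of 11.7 to 29.9 and 5.97 to 8.29 CPM, mostly from Cela1, while Pnlip and Amy2a5 had no read. Adipocyte markers summed to 1.9 to 11.2 CPM in control fed and 7.25 to 36.9 CPM in control fasted libraries, and to 1.31 to 3.31 and 9.61 to 32.6 CPM in knockout fed and fasted libraries, with Cidec as the main gene and Adipoq at no more than 1.29 CPM. The part of these shifts in the enzyme levels was not tested.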

How the data were processed

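Liver RNA was selected with oligo-dT, per the labels' protocols. The authors made the deposited counts (whole reads per gene, not normalized) with bcl2fastq, STAR 2.5.1a and, from the Subread package, featureCounts 1.4.6-p5 on GRCm38, per the submitters' processing notes. The sources used here do not give annotation release or strand setting, so reads of overlapping genes cannot be told apart. Symbols came from GENCODE M21, which named 40340 of 41388 genes (97.5%).

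Of 24 libraries, 23 were complete and 22 were used. The smallest chi-square per degree of freedom between any of 253 pairs was 31.5, so no library was a duplicate. The test was edgeR 4.0.16 under R 4.3.3 on the counts (robust quasi-likelihood, TMM, filterByExpr by group with minimum count 10 and minimum total 15), with all 4 groups in 1 fit, no covariates and Benjamini-Hochberg adjustment over 16757 genes. The fit was also run on simulated counts with known changes. The outcome is not given here, so that run is no measure of its accuracy. CPM use TMM-scaled library sizes, and RPKM are CPM divided by the files' gene length. Standard errors come from log2 fold changes over the root of F, and 95% intervals are normal. Shares and ratios, chosen after the levels were seen, were tested by exact permutation of log2 values (SciPy). Alternatives were other scaling, filters, tests (DESeq2 1.42.0, limma 3.58.1), sample sets and each library left out.

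The members and gene lists were chosen with earlier results of these data known. Per list, up to 4 genes with the smallest p were named. Genes of similar pattern were the 3 nearest to each member spanning at least 2 log2 units.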

Additional observations from a re-analysis of the deposited data

Results flagged for a closer look

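In 3 of 40 groups of libraries, 1 per gene and group, a single library lay far from the rest by Dixon's test, which chance alone does in about 1 in 20 groups. Hsd17b6 was at 223 CPM in control fed replicate 2, and the nearest library of that group was at 84.3 CPM. Cyp17a1 was at 5.33 CPM in control fed replicate 5, with the nearest library at 2.07 CPM. Cyp17a1 was at 208 CPM in knockout fasted replicate 4, with the nearest at 35.7 CPM. The last 2 are the libraries with the highest Saa1.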

How the results depend on the processing

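Directions were read from values rounded to 2 decimals. Of 1640 recomputed member values, 1569 kept their direction and their side of the threshold. With all 23 libraries, including the kidney-like one, 805 genes and 4 members were called for fasting in control livers (1360 and 7 without it) and 379 genes and 3 members in knockout livers (1029 and 6 without it). Hsd3b7 and Akr1d1 then lost their calls in both genotypes, Hsd17b2 in knockout and Cyp17a1 in control livers (edgeR adjusted p = 0.0689 to 0.687).

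Genotype effects called 1 gene in fed livers, against 64 by DESeq2, 0 with 23 libraries, 5 with library totals, 2 without mitochondrial and the 20 most abundant genes, 14 without a filter, and 1 to 13 without single libraries. In fasted livers 1 gene was called, against 3 by DESeq2 and 0 with 23 libraries. For the interaction it was 1, against 6 by DESeq2, 0 with 23 libraries, 0 to 1 without single libraries and 0 without the 2 libraries highest in Saa1, a setting added after seeing the data.

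In control livers Akr1d1 also missed the threshold with limma voom (adjusted p = 0.06) and without a filter (edgeR adjusted p = 0.0717), and Cyp17a1 with the random block (limma adjusted p = 0.286). Srd5a1 passed in control livers by DESeq2 (adjusted p = 0.0351) and with only the compared groups in the fit (edgeR adjusted p = 0.0289), and in knockout livers with limma voom (adjusted p = 0.0473). Cyp17a1 passed in knockout livers with a filter at a mean CPM of 1 (edgeR adjusted p = 0.0445).

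Changes of sign were seen only where the main value did not pass. Without single libraries the log2 fold changes ranged, for fasting, from -0.15 to 0.05 (Hsd11b1, control), -0.35 to 0.23 (Hsd17b6, control), and -0.04 to 0.09 (Hsd11b1, knockout). The log2 ratio of Akr1d1 to Srd5a1 ranged from -0.23 to 0.15 in control livers. For genotype in fasted livers the ranges were -0.17 to 1.33 (Cyp17a1), -0.06 to 0.14 (Hsd11b1), -0.02 to 0.30 (Hsd3b2), -0.07 to 0.20 (Hsd3b3) and -0.19 to 0.20 (Srd5a1), and in fed livers -0.29 to 0.29 (Hsd17b6). For the interaction they were -0.24 to 0.11 (Akr1d1), -0.02 to 0.18 (Hsd11b1), -0.03 to 0.55 (Hsd17b6), -0.26 to 0.06 (Hsd3b2) and -0.02 to 0.37 (Srd5a1). Fasting in knockout livers for Hsd11b1 was -0.02 with library totals and -0.01 with limma voom. With limma voom the genotype effect in fasted livers was -0.08 for Hsd3b3 and -0.12 for Srd5a1, and the Srd5a1 interaction -0.05. With clusters of neighbouring title numbers as a random block the genotype effect in fasted livers was -0.02 for Srd5a1. With 23 libraries Hsd3b7 was at 0.08 for genotype in fasted livers and 0.07 for the interaction, and Akr1d1 at 0.19 for the interaction. Without the 2 libraries highest in Saa1, Cyp17a1 was at -0.17 for genotype in fasted livers, and the interactions of Hsd3b2 and Akr1d1 were 0.04 and 0.01. The cause was not tested. No paired analysis was possible because replicate numbers here only name libraries; the random block used neighbouring title numbers instead, 10 clusters with a consensus correlation of -0.013.

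The fewest reads behind a member value were 28, for Cyp17a1 in control fed replicate 3.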
